A study of Mus musculus with 2 samples.

Results

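Integrins, laminins and the other basement membrane genes were picked by the start of the gene name on the array. The rule took every gene spot named for an integrin alpha chain (with a number, or E, L, M, V or X) or a numbered integrin beta chain. It also took laminin chains, nidogen 1 or 2, perlecan (Hspg2), dystroglycan (Dag1) and the alpha, beta, gamma, delta and epsilon sarcoglycans. Zeta-sarcoglycan (Sgcz) lay outside it and was counted with the further genes of the dystrophin complex. Of the 41161 probes on the array, 86 matched, and they belong to 50 genes. Perlecan had no matching row and was not analysed here. The name rule also took in 5 genes that are no integrins but whose name on the array begins with an integrin's symbol: Itgb1bp1, Itgb1bp2, Itgb3bp, Eif6 and Nmrk2. Of the 50 genes, 47 had a probe well above background and were compared, out of 22811 genes compared in all, and each is represented by its brightest such probe. Itga2, Itga10 and Lamb3 had none and were not compared.

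The RNA came from 16-week-old apoE-/- mice, a strain without apolipoprotein E in which atherosclerosis arises spontaneously. The sample called arch here is the lesion-prone one: it joined the root and arch of the aorta with 2 mm of adjoining thoracic vessel. The sample called thoracic is the lesion-resistant one, the 6 mm that follow. Both came from the same 6 animals (3 males and 3 females), whose extracts were combined into 1 pool per segment, after a detergent perfusion meant to strip the endothelium. Both segments carry the apoE deletion, and no wild-type aorta was part of the series. The same 2 pools went onto 2 arrays in 2 colours, with dyes swapped on the second, so the arrays are technical repeats of 1 measurement. Each ± below is the SD between these arrays (n = 2 arrays). The animals' own spread is unknown, and there is no p-value.

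A basement membrane is the thin sheet of matrix that lies under endothelium and wraps each smooth muscle cell of the vessel wall. Laminins, cross-shaped trimers of an alpha, a beta and a gamma chain, form one network in it, type IV collagen forms another, and nidogens and perlecan tie them together. Cells hold on to the sheet through integrins, pairs of an alpha and a beta chain that connect matrix to the actin cytoskeleton, and in muscle also through dystroglycan and its sarcoglycan partners.

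Most of these genes had like signals in both segments, and the ones that stood out were higher in arch. Values are log2 ratios of arch over thoracic signal, and a gene was counted as past the 1.5-fold rule when both arrays showed a difference of 1.5-fold or more in one direction. By that rule 4 of the 47 members, Lama2, Itga6, Nid1 and Lamb1, were higher in arch (8.51%), against 1.2% of all genes compared. None of the 47 was lower in arch by it, against 0.386% of all genes, and 1.59% of all genes passed in either direction. By a 2-fold rule (a mean of 2-fold or more, with both arrays past 1.5-fold) the count was 0 of 47 in either direction. Over all genes it was 0.473% higher in arch, 0.145% lower in arch and 0.618% in either direction. The median log2 ratio was 0.02 over the members and -0.01 over all genes compared. The ratio was positive for 26 members (55.3%, against 47.3% of all genes) and negative for 21. It had the same sign on both arrays for 36 (76.6%), against 67.6% of all genes. In all, 76.6% of the members and 92.0% of all genes compared had a ratio smaller than 0.3 in size. Over the members, the median SD between arrays was 0.07, and it reached 0.30 for Itga1.

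**Figure D1:**
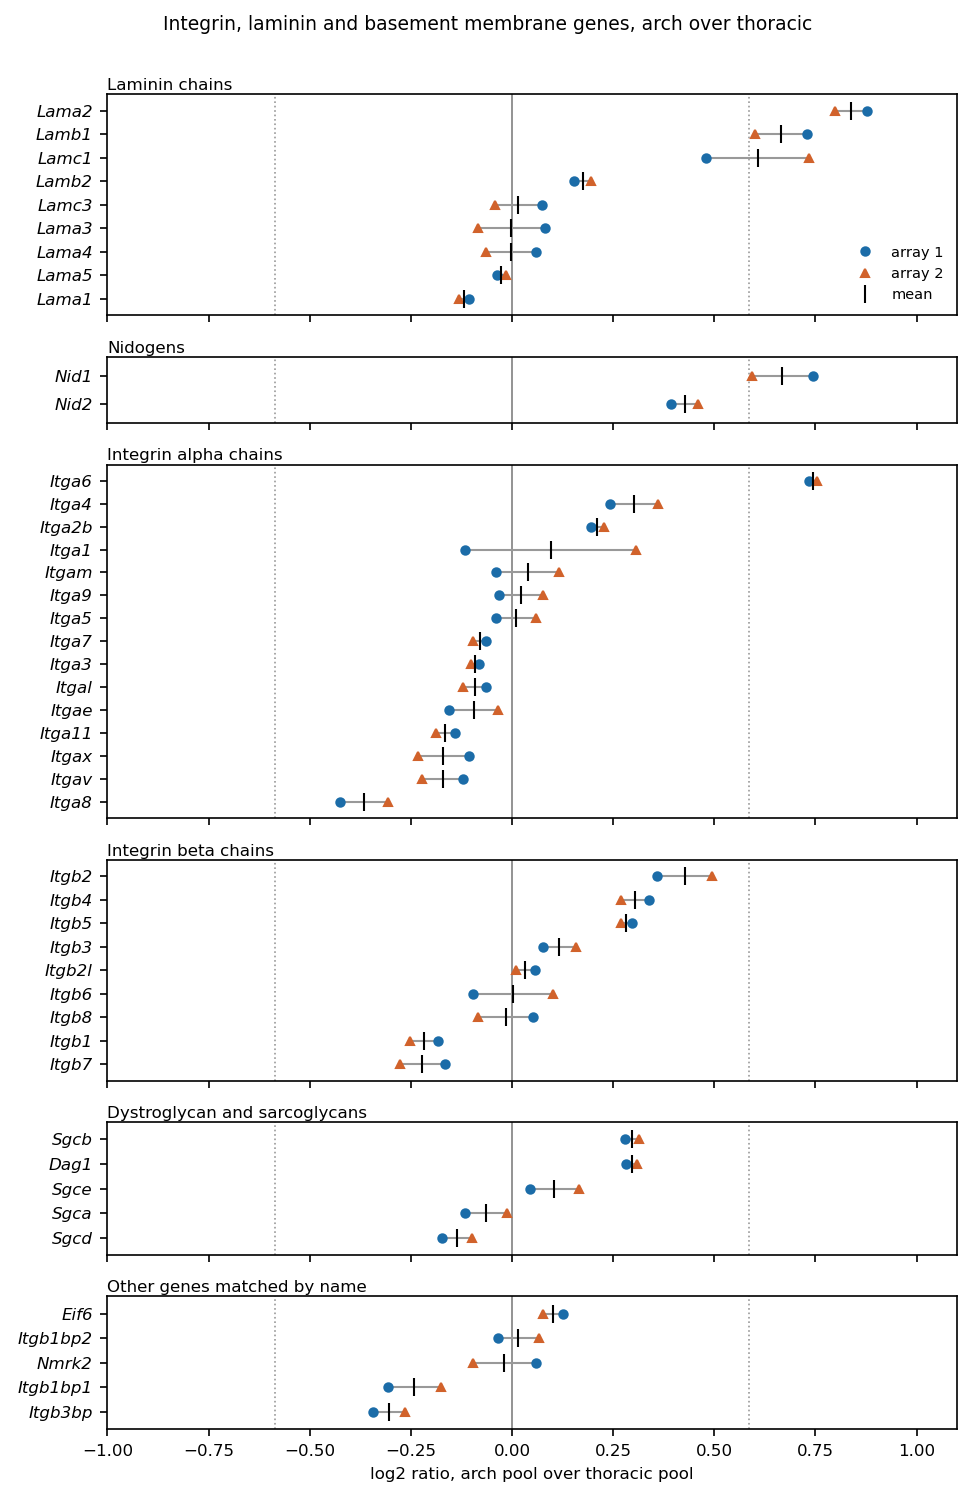
Log2 ratio of the arch pool over the thoracic pool for 45 of the 47 members compared, by role, with a circle for array 1, a triangle for array 2 and a bar for their mean. Dotted lines mark 1.5-fold. Lama2, Lamb1, Nid1 and Itga6 lie beyond the right-hand line on both arrays, Lamc1 on 1 of them, and Itga8 lies furthest to the left.

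The segments were also compared by overlap. For 16 members (34.0%) both arch signals lay above both thoracic signals, against 25.3% of all genes, and for another 16 (34.0%) both lay below, against 22.6% of all genes. For the other 15 members the segments overlapped. With so few arrays, a lack of overlap can also arise without a real difference, so here it only describes the order of the signals. Lama5, with a mean log2 ratio of -0.03, was among the members without overlap. As the arrays repeat the same RNA, a lack of overlap says nothing of the spread between mice.

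Among the laminin chains, Lama2 had the largest difference. It encodes the alpha 2 chain, the laminin of the basement membranes around muscle cells and Schwann cells. Its signals were 516 and 483 in arch on arrays 1 and 2, against 281 and 278 in thoracic. Both arch values lay well clear of the thoracic ones. The log2 ratios were 0.88 and 0.80 (mean 0.84 ± 0.06, or 1.79-fold), and 162 of the 22811 genes, Lama2 itself among them, had a mean ratio at least as high. A further Lama2 probe, with signals of 313 and 287 in arch against 165 and 172 in thoracic, gave 0.83.

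The beta 1 and gamma 1 chains, which join most laminins of the vessel wall, were also brighter in arch. Lamb1, the beta 1 chain, had signals of 602 and 559 in arch against 363 and 369 in thoracic, log2 ratios of 0.73 and 0.60 and a mean of 0.67 ± 0.09 (1.59-fold). Lamc1, the gamma 1 chain, had 1340 and 1399 in arch against 961 and 841 in thoracic. Its groups did not overlap, but its log2 ratios of 0.48 and 0.73 (mean 0.61 ± 0.18) passed 1.5-fold only on array 2, so it falls just outside the rule. Lamb1 in turn is near the limit, and it no longer passed when the background was not subtracted (0.63) or when arrays were centred without loess (0.67).

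The other chains gave smaller ratios or none. Lama4 and Lama5, the alpha chains of endothelial basement membranes, had 529 and 494 in arch against 508 and 516 in thoracic, and 572 and 576 in arch against 587 and 582 in thoracic. The 2 segments overlapped for Lama4, and Lama5 differed by a log2 ratio of -0.03 ± 0.02. Lamb2, the beta 2 chain found in arterial walls and at neuromuscular synapses, gave 0.17 ± 0.03. Lama1, best known from embryonic basement membranes, gave -0.12 ± 0.02, and Lama3, an epithelial chain, and Lamc3, another gamma chain, differed in sign between the arrays. Of the 10 laminin chains compared, 2 were past the 1.5-fold rule, both higher in arch, against 1.2% of all genes. A positive ratio was found for 6 (60%, against 47.3% of all genes), and the median was 0.10.

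**Figure D2:**
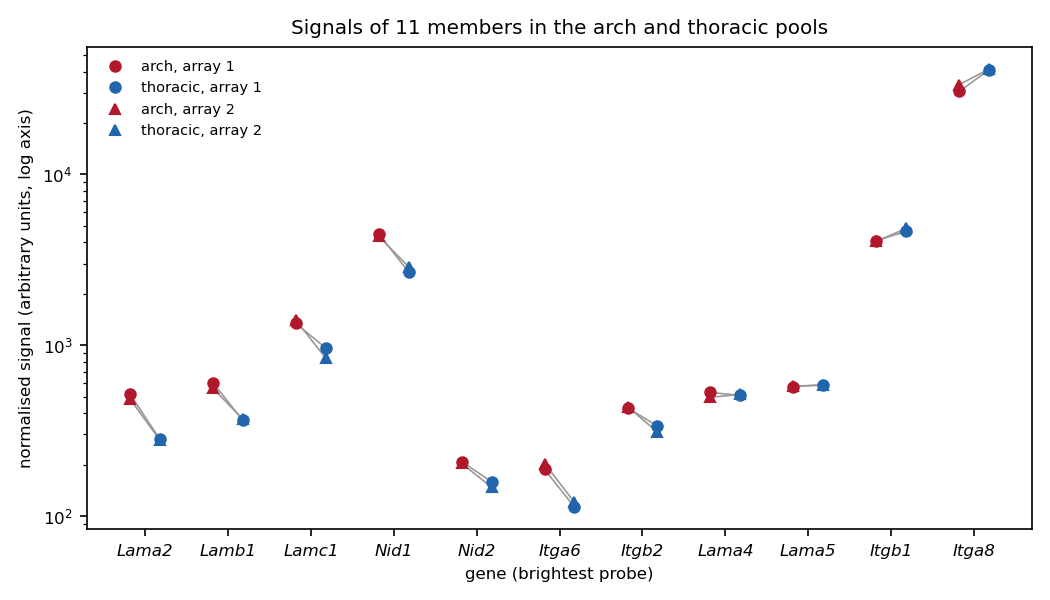
Normalised signal (arbitrary units, log axis) of the brightest probe of 11 members in the arch pool (red, left) and the thoracic pool (blue, right), with circles for array 1 and triangles for array 2 and a line joining the pools of each array. Lines fall to the right for Lama2, Lamb1, Lamc1, Nid1, Nid2, Itga6 and Itgb2, are nearly flat for Lama4 and Lama5, and climb for Itgb1 and Itga8; heights are not comparable between genes.

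Nidogens, the glycoproteins that bridge the laminin network and type IV collagen, were both brighter in arch. Nid1 was among the brightest members, with signals of 4486 and 4337 in arch against 2678 and 2875 in thoracic. Its log2 ratios were 0.74 and 0.59, with a mean of 0.67 ± 0.11 (1.59-fold), and array 2 sits close to the 1.5-fold limit. With arrays centred without loess the mean was 0.58, and the gene no longer passed. Nid2 had 208 and 203 in arch against 159 and 147 in thoracic. Its segments did not overlap, and its log2 ratios of 0.39 and 0.46 (mean 0.43 ± 0.05) stayed under 1.5-fold.

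The promoters of the 3 matrix genes past the 1.5-fold rule, Lama2, Lamb1 and Nid1, are given with that of Itga8, the member with the lowest ratio in arch, so that the sequences can be set side by side. They are RefSeq sequences of build GRCm38.p6, from 250 bases before to 50 after the start of the gene, at chr10:27616893-27617192 on the minus strand for Lama2, chr12:31265043-31265342 on the plus strand for Lamb1, chr13:13437352-13437651 on the plus strand for Nid1 and chr2:12301895-12302194 on the minus strand for Itga8. Capitals mark matches, on either strand, to GGGCGG (the GC box), CCAAT or the CArG box. TATAAA and TGACTCA were searched too and are in none of the 4.
Lama2: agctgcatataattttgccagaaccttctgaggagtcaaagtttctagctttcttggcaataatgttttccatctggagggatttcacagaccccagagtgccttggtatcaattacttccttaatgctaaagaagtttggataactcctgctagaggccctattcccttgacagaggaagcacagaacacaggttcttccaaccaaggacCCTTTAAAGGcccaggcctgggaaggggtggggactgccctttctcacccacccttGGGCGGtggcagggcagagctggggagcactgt
Lamb1: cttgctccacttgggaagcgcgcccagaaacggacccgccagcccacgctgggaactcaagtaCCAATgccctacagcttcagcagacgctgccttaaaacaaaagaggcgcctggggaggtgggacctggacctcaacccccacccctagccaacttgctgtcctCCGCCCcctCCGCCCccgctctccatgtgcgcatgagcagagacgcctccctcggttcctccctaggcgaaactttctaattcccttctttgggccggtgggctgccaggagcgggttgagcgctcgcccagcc
Nid1: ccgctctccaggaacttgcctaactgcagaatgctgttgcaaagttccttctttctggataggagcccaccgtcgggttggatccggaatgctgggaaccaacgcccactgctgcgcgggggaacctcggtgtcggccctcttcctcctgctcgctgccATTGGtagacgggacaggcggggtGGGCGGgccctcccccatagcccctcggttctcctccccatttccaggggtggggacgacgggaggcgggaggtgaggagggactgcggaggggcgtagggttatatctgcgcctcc
Itga8: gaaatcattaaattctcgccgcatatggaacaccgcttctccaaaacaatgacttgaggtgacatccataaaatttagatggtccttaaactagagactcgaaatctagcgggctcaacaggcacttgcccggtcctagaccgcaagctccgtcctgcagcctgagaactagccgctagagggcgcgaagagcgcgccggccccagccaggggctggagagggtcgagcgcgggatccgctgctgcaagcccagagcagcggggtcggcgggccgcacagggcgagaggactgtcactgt
Lama2 held 1 CArG box, the sequence bound by serum response factor, and 1 GGGCGG. Lamb1 held 2 copies of GGGCGG and 1 CCAAT, Nid1 held 1 of each, and Itga8 held no match. Of all 32851 mouse promoters of this length, 35.7% held GGGCGG, 37.4% CCAAT, 1.63% a CArG box, 13.6% TATAAA and 5.20% TGACTCA. Of the 36 promoters found for 32 of the 50 members, GGGCGG was in 18, CCAAT in 7, and the CArG box, TATAAA and TGACTCA in 2 each. The CArG box was in those of Lama2 and Itgb6. A match describes these letters and does not show a bound site. The windows held 50.3% G and C for Lama2, 63.7% for Lamb1, 64.7% for Nid1 and 59.0% for Itga8, against a median of 52.7% over all promoters.

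Other genes of the basement membrane, from a list of 25 outside the name rule, gave mostly small positive ratios. Of the 23 compared, 1 was past the 1.5-fold rule, higher in arch, 19 (82.6%) had a positive ratio, against 47.3% of all genes, and their median log2 ratio was 0.12. That gene was Smoc1, a calcium-binding matrix protein of the SPARC family, with signals of 1028 and 964 in arch against 502 and 515 in thoracic (log2 ratio 0.97 ± 0.09). Egflam (pikachurin, a dystroglycan ligand) gave 0.43 ± 0.05, with a dimmer probe at -0.07. Fras1, an epithelial basement membrane protein, gave 0.41 ± 0.09, and Col4a3, a type IV collagen chain of specialised membranes, 0.35 ± 0.24.

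Among the receptors, the alpha 6 chain differed most. Itga6 pairs with the beta 1 or beta 4 chain to bind laminin. Its signals were 187 and 203 in arch against 113 and 120 in thoracic, with log2 ratios of 0.73 and 0.75 and a mean of 0.74 ± 0.01 (1.67-fold). The pools did not overlap, but the probe is dim. With the background handled differently its ratio was 1.13 (normexp without offset, past the 2-fold rule) or 0.62 (no subtraction), and the scanner software's own log ratio gave 1.19, also past the 2-fold rule. A further Itga6 probe, the one designed on its RefSeq transcript, gave 0.48 and was past 1.5-fold only on array 2. With that probe in place of the brightest, or with the median over its probes (0.61), Itga6 did not pass the 1.5-fold rule. Itga3 and Itga7, the other laminin-binding alpha chains (alpha 7 is the main one of muscle), gave -0.09 ± 0.02 and -0.08 ± 0.02. For Itga3, other probes gave 0.10 and 0.12.

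Integrins that bind collagen or RGD sequences, the short motif of fibronectin and vitronectin, gave no member past the rule, which 1.59% of all genes passed. Itga8, the alpha 8 chain of smooth muscle and mesangial cells that binds nephronectin, had the lowest ratio of all 47 members. Its signals were 30582 and 33504 in arch against 41056 and 41460 in thoracic. Both arch values lay below both thoracic ones, with log2 ratios of -0.42 and -0.31 (mean -0.37 ± 0.08, or 1.29-fold lower in arch). In all, 364 of the 22811 genes, Itga8 included, had a mean ratio at least as low. A further bright probe gave -0.32 and a dim one -0.09, and centring without loess put the brightest probe at -0.60, still not past the 1.5-fold rule. Itgav, the shared alpha chain of the vitronectin receptors, gave -0.17 ± 0.07, with 0.10 on another probe. Itga11 and Itga1, which bind collagens, gave -0.16 ± 0.03 and 0.10 ± 0.30. Itga1 had signals of 556 and 862 in arch against 602 and 697 in thoracic, lower in arch on array 1 and higher on array 2. Itga5, the fibronectin receptor chain, gave 0.01 ± 0.07. Itga2b, the platelet fibrinogen receptor chain, gave 0.21 ± 0.02, and 0.55 in the scanner software's log ratio.

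Integrins of leukocytes gave unequal answers, and for Itgax the answer depended on the probe. Itgax encodes the CD11c chain of dendritic cells and macrophages. Its brightest probe had 179 and 171 in arch against 193 and 201 in thoracic (log2 ratio -0.17 ± 0.09). The probe designed on its RefSeq transcript had 268 and 286 in arch against 119 and 114 in thoracic, with log2 ratios of 1.17 and 1.33 and a mean of 1.25 ± 0.11 (2.38-fold). With that probe in its place, a choice made after its value was seen, Itgax passes both rules. It is the only one of the 21 members with several usable probes whose probes lie over 1.5-fold apart, and the median distance over the 21 was 0.18.

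**Figure D3:**
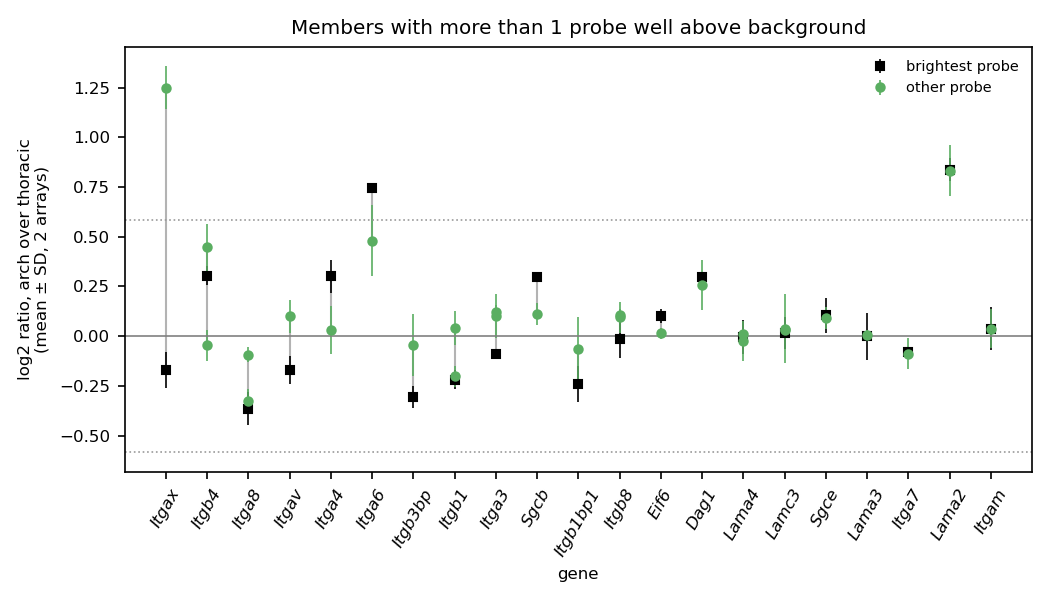
Log2 ratio of arch over thoracic for each probe of the 21 members with more than 1 probe well above background, as mean ± SD of 2 arrays, with black squares for the brightest probe and green circles for the others. Dotted lines mark 1.5-fold. The Itgax probes stand furthest apart, at -0.17 and 1.25, and the Lama2 probes nearly coincide.

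Itgb2, the beta chain shared by the leukocyte integrins, had 430 and 437 in arch against 336 and 310 in thoracic. The pools did not overlap, and the log2 ratios of 0.36 and 0.50 (mean 0.43 ± 0.10) stayed under 1.5-fold. Its partners Itgam (CD11b) and Itgal (LFA-1) gave 0.04 ± 0.11 and -0.09 ± 0.04, and Itgae, the CD103 chain of intraepithelial T cells, gave -0.09 ± 0.09. Itga4, the alpha 4 chain that binds VCAM-1, had 191 and 203 in arch against 161 and 158 in thoracic, with log2 ratios of 0.24 and 0.36 (mean 0.30 ± 0.08), and 0.03 on another probe. Itgb7, which pairs with alpha 4 or alpha E, gave -0.22 ± 0.08, and Itga9, an alpha chain close to alpha 4, gave 0.02 ± 0.08. The macrophage markers also differed between the pools. Of 16, all compared, 4 were past the 1.5-fold rule, all higher in arch (Gpnmb, Lgals3, Clec7a and Mpeg1, the last with a further probe at 0.36). Over all genes, 1.2% were higher in arch by it. Of the 16, 13 had a positive ratio and 3 a negative one, and 8 had a ratio smaller than 0.3 in size. The markers' median log2 ratio was 0.31 (0.27 without the saturated Lyz2). Their summed signal without Lyz2 was 53025 and 52950 in arch, against 37324 and 37503 in thoracic. Of 17 other leukocyte and platelet markers compared, 1 was past the rule, higher in arch, 10 had a positive ratio, and the median was 0.05. Their sums were 14851 and 14967 in arch against 16860 and 16989 in thoracic, an order that rests on the platelet gene Pf4: without it they were 6267 and 6510 in arch against 5417 and 5373 in thoracic. The part of these cells in the ratios of Itgb2, Itgax and Itga4 was not tested.

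None of the 9 beta chains passed the 1.5-fold rule, which only 1.59% of all genes passed, and their median log2 ratio was 0.03. Itgb1, the beta chain of most matrix receptors, had 4088 and 4052 in arch against 4642 and 4828 in thoracic. Both arch values lay below both thoracic ones, with log2 ratios of -0.18 and -0.25 (mean -0.22 ± 0.05), and further probes gave -0.20 and 0.04. Itgb5, which pairs with alpha v, was bright and leaned the other way, with 11001 and 10653 in arch against 8961 and 8842 in thoracic. Its log2 ratios were 0.30 and 0.27 (mean 0.28 ± 0.02), and 0.13 when arrays were centred without loess. Itgb4, the alpha 6 partner in hemidesmosomes, had 161 and 167 in arch against 128 and 139 in thoracic. The pools did not overlap, and the log2 ratios were 0.34 and 0.27 (mean 0.30 ± 0.05), with further probes at 0.45 and -0.05. Itgb3, the beta chain of the platelet receptor and of alpha v beta 3, gave 0.12 ± 0.06. Itgb2l, Itgb6 and Itgb8 had means between -0.02 and 0.03.

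Dystroglycan, the laminin receptor of the dystrophin complex, and the sarcoglycans of the name rule split evenly, with 3 positive and 3 negative ratios. Of all genes, 47.3% had a positive ratio. None of the 6 passed the 1.5-fold rule, which 1.59% of all genes passed. Dag1 had 377 and 394 in arch against 310 and 318 in thoracic (log2 ratios 0.28 and 0.31). Sgcb, beta-sarcoglycan, had 1189 and 1216 in arch against 980 and 978 in thoracic, also 0.28 and 0.31, with a further probe at 0.11. In neither gene did the pools overlap. Sgce, epsilon-sarcoglycan, a form found in smooth muscle, had 6387 and 6563 in arch against 6196 and 5849 in thoracic (0.04 and 0.17). With arrays centred without loess its mean was -0.02. Alpha- and delta-sarcoglycan (Sgca and Sgcd) gave -0.06 ± 0.07 and -0.14 ± 0.05. Of 17 further genes of the dystrophin complex, all compared, 0 passed the 1.5-fold rule, against 1.59% of all genes, and their median was 0.06. Sgcz (zeta-sarcoglycan), among them, gave -0.11 ± 0.10.

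The genes taken in only because their name on the array begins with an integrin's symbol were not past the rule either, which 1.59% of all genes passed. Itgb3bp, a centromere protein also known as CENP-R, had 374 and 373 in arch against 475 and 448 in thoracic (log2 ratios -0.34 and -0.26). Itgb1bp1 (ICAP-1), which binds the tail of the beta 1 chain, had 1145 and 1168 in arch against 1415 and 1320 in thoracic (-0.31 and -0.18). For both genes the arch signals lay below the thoracic ones, and another probe gave a smaller ratio: -0.04 for Itgb3bp and -0.07 for Itgb1bp1. Eif6, a ribosome assembly factor, Itgb1bp2 (melusin, a muscle chaperone) and Nmrk2, a muscle kinase of NAD synthesis, lay between -0.02 and 0.10.

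Ligands and inner partners of integrins were set beside the receptors. Of 22 ligands compared outside the basement membrane, 3 were higher in arch by the 1.5-fold rule and 1 was lower, against 1.2% and 0.386% of all genes. A positive ratio was found for 12 (54.5%, against 47.3% of all genes). Spp1 (osteopontin) had signals of 21164 and 20940 in arch against 4427 and 4274 in thoracic (log2 ratio 2.27 ± 0.02), Vcam1, the alpha 4 ligand, gave 0.97 ± 0.08, with a further probe under 1.5-fold at 0.54, and Ccn3 gave 0.85 ± 0.06. Tnc (tenascin-C) gave -1.19 ± 0.14, but -0.08 on another probe. Of 31 genes of focal adhesions, the protein plaques that link integrins to actin, 1 passed, higher in arch, 26 had a positive ratio (83.9%, against 47.3% of all genes), and the median was 0.16. Tns3 (tensin 3), an adaptor that binds integrin tails, had 975 and 885 in arch against 413 and 401 in thoracic (1.19 ± 0.07). Zyx (zyxin), an actin regulator of these plaques, gave 0.50 ± 0.03.

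Markers of some of the cell types also differed between the segments, while other lists had 0 genes past the 1.5-fold rule. In pooled tissue, fewer cells of a type and less RNA per cell cannot be told apart. Over all genes, 1.2% passed the rule higher in arch and 0.386% lower in arch. All 12 smooth muscle markers were well above background, as the label calls for. Acta2, Tagln and Myl9 were saturated, so their ratios cannot show a difference. Of the other 9, 0 passed the 1.5-fold rule (median 0.12), and their sums were 64804 and 64308 in arch against 60334 and 58864 in thoracic. All 14 endothelial markers were above background despite the perfusion. Of these, 4 passed, all higher in arch (Kdr, Vwf, Emcn and Ptprb). All 14 had a positive ratio, 5 of them smaller than 0.3 in size, and the median was 0.43. The summed signal was 3803 and 3732 in arch against 2584 and 2529 in thoracic. Of 11 markers of mesothelium and epithelium compared, 8 were higher in arch by the rule (median 1.19). Their sum was 8866 and 8369 in arch against 3681 and 3642 in thoracic, where Cdh1 was not above background, and Epcam was above it in neither pool. Of 11 adventitial fibroblast markers 3 passed, higher in arch (Lum, Pdgfra and Abca8a), though a further Pdgfra probe gave 0.12. Of the 11, 9 had a positive ratio and 2 a negative one, with a median of 0.29. Their sums without saturated genes were 156256 and 159132 in arch against 132199 and 133792 in thoracic. Of 13 heart muscle markers 5 passed, higher in arch, 10 had a positive ratio and 3 a negative one, and the median was 0.27. Their sums were 28830 and 31573 in arch against 23636 and 21710 in thoracic. Most of that signal was Actc1, and without it the sums were 7647 and 7533 in arch against 2527 and 2600 in thoracic. Of these, Myl7 alone had 3137 and 2910 in arch against 236 and 246 in thoracic. Of 12 skeletal muscle markers, 2 were higher and 1 lower in arch, with sums of 15259 and 14582 in arch against 13916 and 14914 in thoracic, and without Acta1, their brightest, 1447 and 1423 in arch against 1418 and 1390 in thoracic. Of 9 Schwann cell and nerve markers 0 passed, 6 had a positive ratio and 3 a negative one, and the median was 0.05. Their sums were 16821 and 16798 in arch against 14837 and 14977 in thoracic. Without Pmp22, their brightest, the sums were 6305 and 6046 in arch against 5229 and 5179 in thoracic. Adipocyte markers, 8 of 8 compared, had 0 past the rule and a median of -0.07 (-0.16 without the saturated Fabp4), with sums without that gene of 30525 and 28827 in arch against 34103 and 35196 in thoracic. Without Cfd, their brightest, these were 11914 and 11684 in arch against 12004 and 11765 in thoracic. The part of these cells in the ratios of Lama2, Lamb1, Lamc1, the nidogens and Itga6 was not tested.

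**Figure D4:**
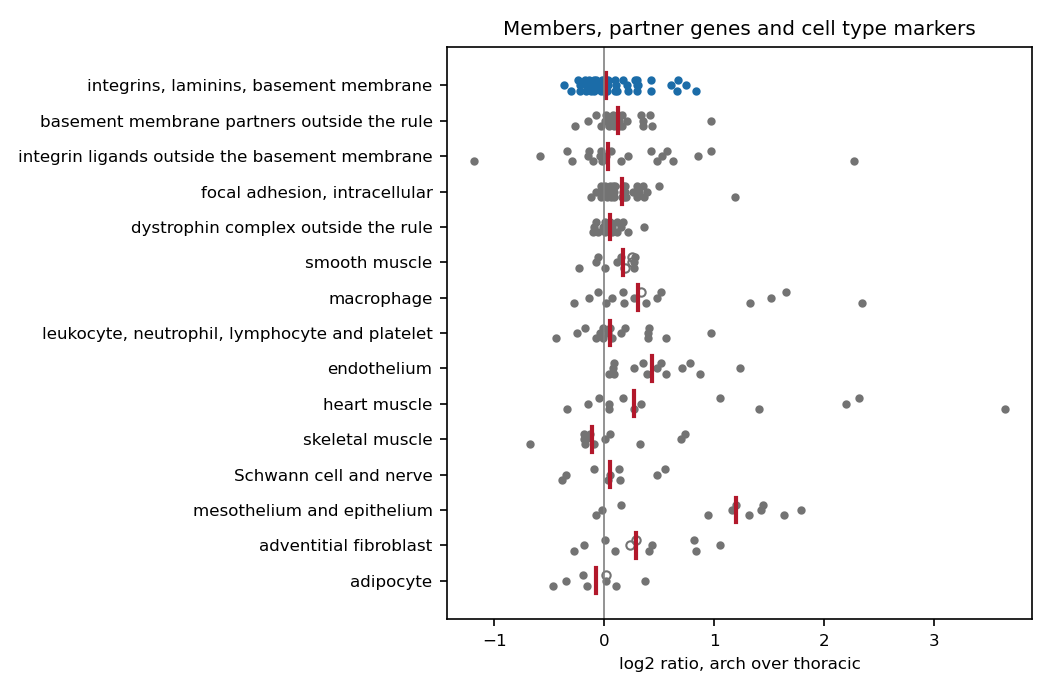
Mean log2 ratio of arch over thoracic for each gene (points) and the median (red bar) of the 47 members, in blue, and of the partner lists and cell type markers, in grey, with hollow points for saturated genes. The member median sits at 0.02, and the mesothelium and epithelium markers at 1.19.

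**Figure D5:**
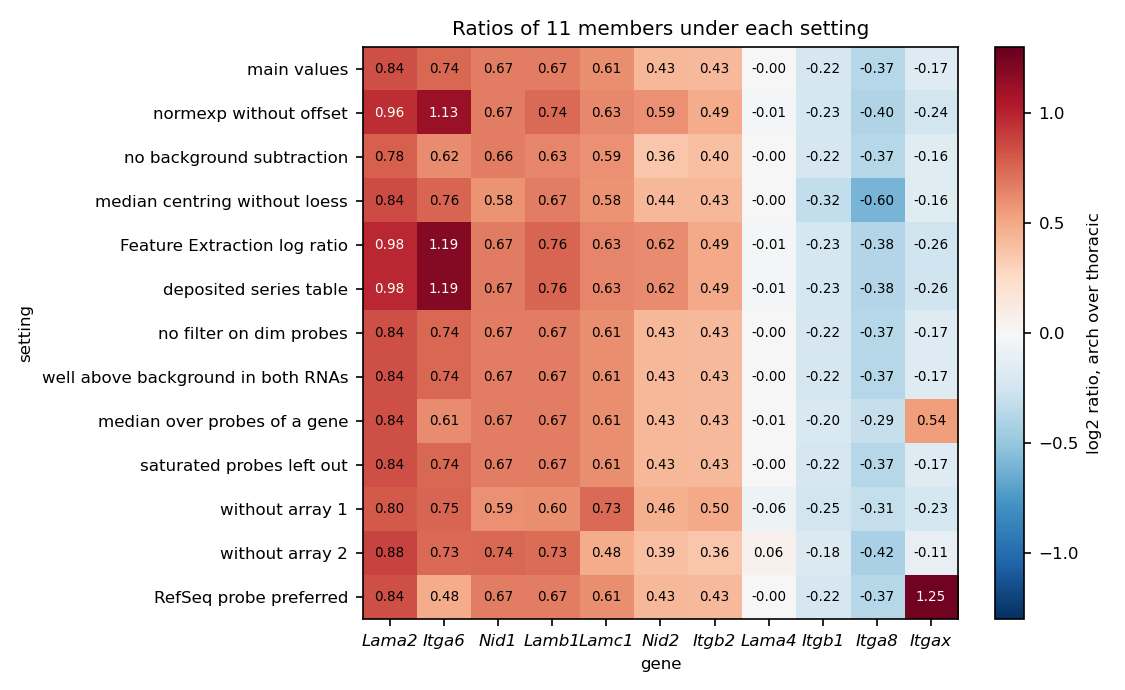
Log2 ratio of arch over thoracic for 11 members (columns) as reported and under each other way of processing (lines), with red for higher in arch and blue for lower. Lama2 stays between 0.78 and 0.98, Itga6 ranges from 0.48 to 1.19, and Itgax from -0.26 to 1.25.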

How the data were processed

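Members and gene lists were chosen with earlier results of these data known. Per the file headers, the deposited scanner tables hold spot intensity values from Agilent Feature Extraction 8.1.1.1, while the submitters' processing notes name 9.1.1.1; they give mean signals and local background medians, not normalized. The deposited log ratio and the table of the whole series, which repeats it, are log10 ratios made by the authors' scanner software. On array 1 arch was in green and thoracic in red, and on array 2 the dyes were exchanged, per the labels.

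With limma 3.58.1 (R 4.3.3), mean signals were background-corrected by normexp (offset 50) and loess-normalised within each array, with control spots at weight 0. Spots flagged as outliers (8 on array 1 and 5 on array 2) were left out, spots of a probe averaged, and array 1 turned to arch over thoracic. Ratios are log2 values computed from the deposited intensities. Signals were scaled between arrays by Aquantile. A gene took its brightest probe among those that the scanner's flags put well above background, on both arrays, in arch, thoracic or both. The share of gene spots well above background was 82.1% and 78.0% for arch and 76.5% and 82.6% for thoracic. Local backgrounds (medians 55 to 66) lay under the negative controls (means 77.0 to 97.1), so ratios of dim probes are pulled towards 0. The offset of 50 narrows them too: Itga6, at 0.74 as reported, gave 1.13 without it. The number of arrays limits the precision. No member probe used was saturated.

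Names came from a RefSeq table (GRCm38.p6): 66 of the 86 member probes matched by accession, 19 by current symbol and 1 by synonym. With 1 pool per segment no test was run, and differences were called by size. All members may be named. Values per array are given for those past the 1.5-fold rule, the 15 of largest ratio, the 5 brightest and those whose probes disagree. Of each partner list, at most 4 genes may be named, by size. Sgcz, a sarcoglycan outside the name rule, was named as well, after its value was seen. Cell markers past the rule, saturated or dominating a sum were also named after their values were seen. There were 12 alternatives: background, loess, scanner log ratio, deposited table, filters, probe choice, saturation, single arrays and, added after seeing the data, a preference for probes on RefSeq transcripts. The steps were tested on simulated data. A few single-gene results are not reported here, though the counts include those genes.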

Additional observations from a re-analysis of the deposited data

How the results depend on the processing

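The number of members past the 1.5-fold rule was 4 as reported. It ranged from 4 to 5 when either array was left out, and could not fall there because the rule asks for both arrays. It was 2 with arrays centred without loess (Itga6 and Lama2), where 1.04% of all genes passed against 1.59% as reported. The number past the 2-fold rule was 0 as reported and 0 with either array left out, but 1 with normexp without offset, with the scanner's log ratio and with the deposited table (Itga6 in each), and 1 with RefSeq probes preferred (Itgax). Without array 1, Lamc1 joined the 1.5-fold count. The count over all genes past the 2-fold rule, 0.618% as reported, was 1.15% without offset and 1.35% with the scanner's log ratio. The median log2 ratio over members, 0.015, was 0.028 without offset, 0.047 with the scanner's log ratio and with the deposited table, 0.033 with the median over a gene's probes, and 0.044 to 0.060 with 1 array. Lama2 passed the 1.5-fold rule in 12 of 12 alternatives, Nid1 in 11, Lamb1 in 10 and Itga6 in 10. Itga6 fell out with RefSeq probes preferred and with the median over a gene's probes. Several of these alternatives could not undo a call. Single arrays could not, as the rule asks for both. The filters on dim and saturated probes left the values of these genes unchanged, and the deposited table repeats the scanner's log ratio. No paired analysis was possible because both arrays hold the same 2 pools. For the dim Itga6 probe, background handling alone gave 0.62 to 1.13. The cause of the change under centring was not tested.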

Other observations

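Some probes of member genes carry other names on the array and so lay outside the name rule. For Itga1, whose member probe differed in sign between arrays (-0.12 and 0.31), 2 such probes gave log2 ratios of arch over thoracic of -0.19 and -0.12. For Itga9, with 0.02 by the member probe, 1 such probe gave -0.10. For Itgav, with -0.17 by its brightest member probe, 1 such probe above background gave 0.12. None of these reached 1.5-fold.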
